A study of Mus musculus with 24 samples.

Results

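The 10 regulators and effectors of oxidative metabolism followed through muscle differentiation were Ppargc1a, Ppargc1b, Esrra, Ppara, Ppard, Tfam, Nrf1, Cpt1b, Fabp3 and Ucp3. They were taken by name from the table of read counts, where each had 1 row, so that they are 10 of its 28109 genes. Messenger RNA was measured in C2C12 cells, a long-established myoblast line from C3H mice, and in primary myoblasts (PMs) of wild-type C57/B6 mice aged 3 to 4 weeks. The C2C12 cells were cultured in DMEM, and the PMs in IMDM after plating on dishes coated with matrigel. Both cell types received an siRNA to luciferase (siControl) or a mix of siRNAs to Tead1 and Tead4 (siTead1/4). The question was how loss of both transcription factors alters the differentiation programme. RNA was prepared from undifferentiated cells 1 day after transfection (day 0) and after 3 and 6 days in medium with horse serum, which drives fusion into myotubes, with 2 biological replicates in each of the 12 groups. All 24 libraries thus come from transfected cells, the C2C12 line is 1 line, and the animals behind each PM replicate are not given in the sources used here.

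Muscle fibres burn fatty acids in mitochondria. The coactivators encoded by Ppargc1a (PGC-1 alpha) and Ppargc1b (PGC-1 beta) bind to nuclear receptors such as the estrogen-related receptor alpha (Esrra) and the peroxisome proliferator-activated receptors alpha and delta (Ppara, Ppard), and to the nuclear respiratory factor Nrf1, which drives genes such as Tfam, whose protein packages and transcribes mitochondrial DNA. Fabp3 carries fatty acids through the cytosol of muscle cells, Cpt1b makes the acyl-carnitines that enter mitochondria, and Ucp3 is a carrier of the inner mitochondrial membrane that rises in muscle when fatty acids are burned.

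The libraries held 25453830 to 52784510 counts on genes. Levels are given as CPM, the count scaled to library size. Tead4 was lower in both siTead1/4 libraries than in both siControl libraries at each day and in each cell type, whereas Tead1 in C2C12 cells at day 6 overlapped (70.6 and 77.0 CPM after siTead1/4, 76.0 and 136 CPM after siControl). The Tead1 level of the siTead1/4 C2C12 libraries at day 0 was 28.9 CPM in replicate 1 and 4.50 CPM in replicate 2. Tead4 was called down at all 3 days in PMs (-2.36, -2.58 and -1.75 on the log2 scale) and at days 0 and 3 in C2C12 cells (-2.21 and -1.76), with a value of -1.28 at day 6 (edgeR adjusted p = 0.32). Tead1 was called at days 0 and 3 in PMs (-1.44 and -1.68) and at no day in C2C12 cells. All Tead1 values are those of the identifier ENSMUSG00000055320, and a further identifier named Tead1 is not shown. The replicates of the 3 siTead1/4 groups of C2C12 cells stood further apart than those of the other 9 groups (chi-square per gene 113 to 287 against 16.5 to 67.9). Myogenic cell markers summed to 823 to 7000 CPM in C2C12 libraries and to 3467 to 9343 CPM in PM libraries. Markers of myotubes (10 genes, among them Myog, Ckm and Acta1) summed to 35.0 to 112 CPM in siControl C2C12 cells at day 0 and to 9969 to 10993 CPM in siControl PMs at day 0, so that the PMs labelled undifferentiated already held myotube transcripts. Adipocyte markers (Adipoq, Plin1, Cidec, Lep, Cfd and Retn) summed to at most 0.424 CPM in any library, with Cfd at 0 in all 24. Fibroblast markers reached 3000 CPM in PMs, mostly Col1a1, with Tcf21 at 0 in all 24 libraries. In bulk RNA, fewer cells of a type and less RNA per cell cannot be told apart.

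The levels of the 10 genes differed widely. Per kilobase of gene length, the order in siControl PMs at day 6 was led by Fabp3 at a mean of 147 CPM per kb, followed by Esrra (26.9), Tfam (11.9), Ppard (10.2), Ucp3 (8.80), Nrf1 (4.01), Ppargc1b (3.47), Ppargc1a (1.74), Cpt1b (1.40) and Ppara (0.668). The libraries of Nrf1 and Ppargc1b overlapped in that order, as did those of Ppargc1a and Cpt1b. In siControl C2C12 cells at day 0 Ppard stood first (22.5 CPM per kb), ahead of Esrra (18), Tfam (14.9) and Nrf1 (8.48), and the last 4 were Cpt1b (0.104), Ppargc1a (0.0313), Ucp3 (0.0245) and Ppara (0.0180), of which the last 3 overlapped. By day 6 of C2C12 differentiation Fabp3 had moved to the first place (47.6 CPM per kb) and Cpt1b to the last (0.0438). Esrra, Tfam and Nrf1 thus held a middle to high level in both cell types, whereas Fabp3, Ucp3, Ppargc1a, Cpt1b and Ppara spanned the widest ranges. The length used for Cpt1b is 3343 bases, and its exons share 2744 bases with the gene Chkb on the same strand. How reads of the shared bases were assigned was not tested, so the level per kb and the place of Cpt1b are uncertain.

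**Figure D1:**
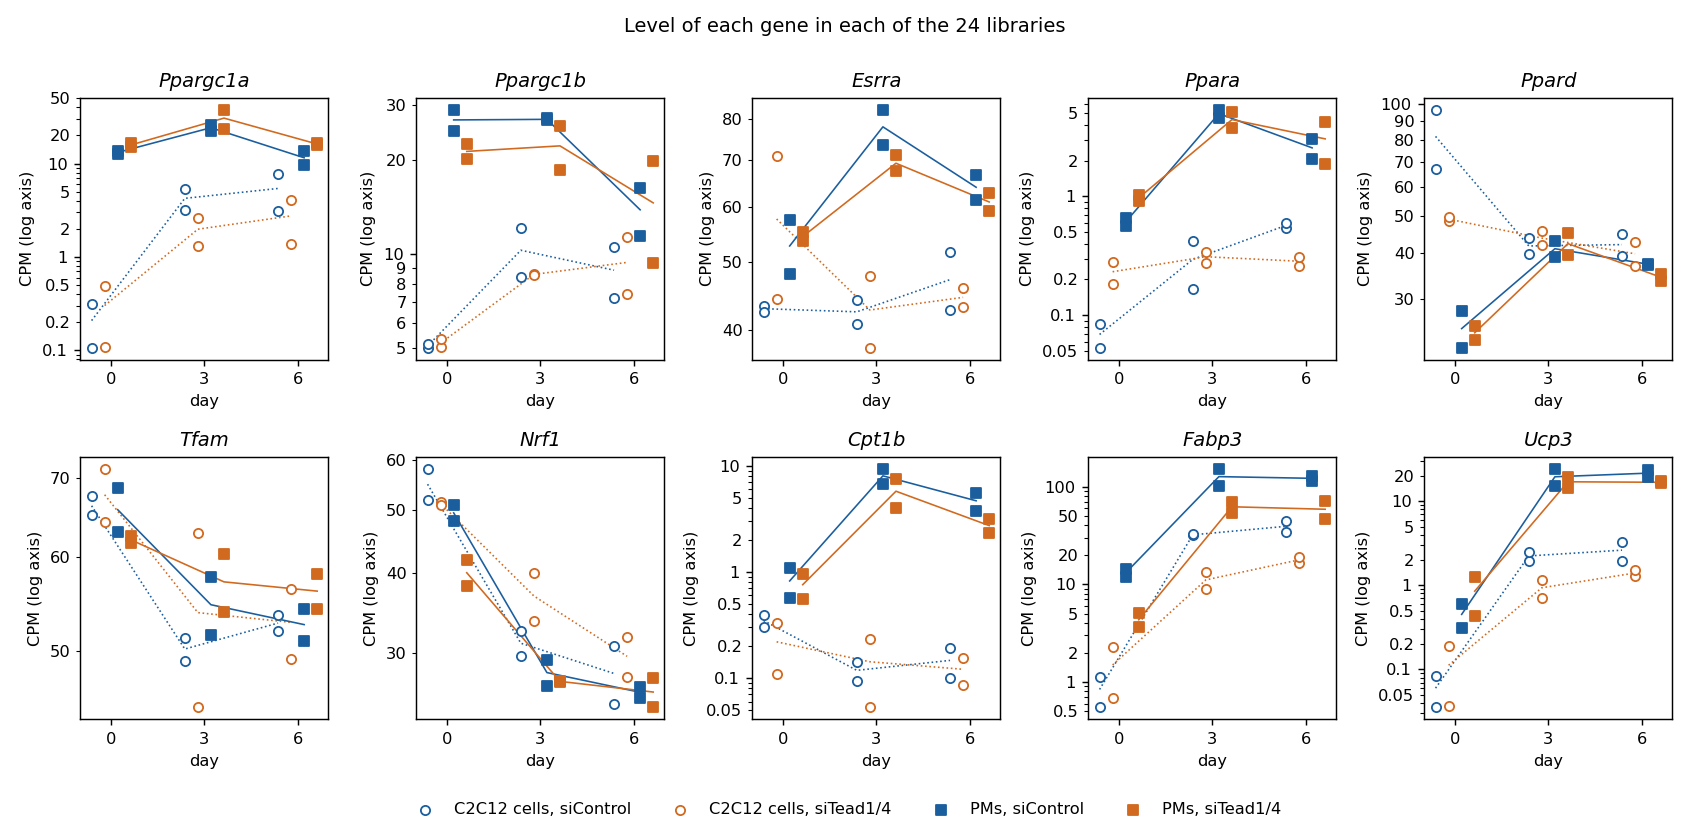
Level of each of the 10 genes in each of the 24 libraries, in CPM on a log axis whose range differs between panels, by day (x axis, with groups set side by side). Points are libraries, lines join the means of 2 replicates (dotted for C2C12 cells), open circles are C2C12 cells and filled squares PMs, blue is siControl and orange siTead1/4. Fabp3 was lower in the siTead1/4 libraries of PMs at each day, Cpt1b stayed below 0.4 CPM in all C2C12 libraries, and Tfam stayed between 44.8 and 71.2 CPM throughout.

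Promoters are shown for 4 members that were induced or differed between the cell types, with the motif letters found in them. The RefSeq table of promoters (GRCm38.p6, 250 bases before to 50 bases after the start) had entries for 8 of the 10 members. On either strand, the MCAT core CATTCC that Tead proteins bind was in none of the member promoters, against 14.7% of all 32851 promoters, and the estrogen-related receptor element TCAAGGTCA was in none, against 0.423%. The NRF1 core GCATGCGC, found in 2.71% of promoters, was in those of Esrra and Ppara. The nuclear receptor half-site AGGTCA, found in 16.3%, was in that of Ucp3 alone among the members, and the E-box CANNTG, which myogenic factors of the MyoD family bind, was in 72.3% of all promoters. Ppargc1a had 6 E-boxes, at positions -233 to -63 from the start, Nrf1 had 4 in the second of its 2 promoters, Ucp3 had 3, Esrra and Ppard had 2 each, and Ppara, Tfam and Fabp3 had 1 each. These are matches of letters in a short window and no measure of binding.
Ppargc1a (chr5:51567676-51567975, minus strand; capitals mark E-boxes): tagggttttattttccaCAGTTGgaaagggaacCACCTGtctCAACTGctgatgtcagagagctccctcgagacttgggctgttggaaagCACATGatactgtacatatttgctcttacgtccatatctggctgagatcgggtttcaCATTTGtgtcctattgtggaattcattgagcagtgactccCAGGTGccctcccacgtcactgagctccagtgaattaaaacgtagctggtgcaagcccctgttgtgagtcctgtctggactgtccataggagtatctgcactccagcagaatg
Ppara (chr15:85735526-85735825, plus strand; capitals mark the NRF1 core on both strands): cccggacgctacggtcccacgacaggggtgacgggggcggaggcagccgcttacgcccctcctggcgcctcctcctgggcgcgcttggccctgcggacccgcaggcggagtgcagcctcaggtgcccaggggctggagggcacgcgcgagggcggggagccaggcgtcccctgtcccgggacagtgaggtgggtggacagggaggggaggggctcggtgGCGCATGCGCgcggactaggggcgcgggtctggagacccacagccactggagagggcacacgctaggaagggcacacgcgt
Fabp3 (chr4:130308488-130308787, plus strand; capitals mark the E-box): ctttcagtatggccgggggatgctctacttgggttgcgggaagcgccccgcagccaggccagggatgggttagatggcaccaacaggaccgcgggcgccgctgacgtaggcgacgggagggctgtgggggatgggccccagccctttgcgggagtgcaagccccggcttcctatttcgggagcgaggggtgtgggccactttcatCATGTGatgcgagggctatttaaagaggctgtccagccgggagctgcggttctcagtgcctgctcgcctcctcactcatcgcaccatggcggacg
Ucp3 (chr7:100472741-100473040, plus strand; capitals mark the half-sites, the second of which overlaps an E-box): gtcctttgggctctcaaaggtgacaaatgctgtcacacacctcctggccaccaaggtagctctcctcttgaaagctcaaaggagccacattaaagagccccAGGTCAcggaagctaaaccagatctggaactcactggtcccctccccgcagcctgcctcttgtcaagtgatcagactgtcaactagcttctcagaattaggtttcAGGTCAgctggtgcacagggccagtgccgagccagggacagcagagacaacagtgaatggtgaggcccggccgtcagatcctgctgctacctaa

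To see how the members moved in normal differentiation, siControl cells at days 3 and 6 were compared with day 0 in each cell type. In both cell types Fabp3, Ucp3 and Ppara were induced, Ppara in C2C12 cells from 3 counts in each library. Nrf1 and Tfam had lower levels than at day 0, although Tfam in C2C12 cells at day 3 did not reach an adjusted p under 0.05. Esrra changed little in C2C12 cells and was higher in PMs at day 3 by 0.51 on the log2 scale. The cell types parted over Ppargc1a, which rose in C2C12 cells from near 0 and was high in PMs from the start, over Cpt1b, which rose only in the PM comparisons, and over Ppard, which fell in C2C12 cells and had a higher level in PMs. A gene was called at a Benjamini-Hochberg adjusted p under 0.05 of edgeR's quasi-likelihood test and an absolute log2 fold change over 1. In C2C12 cells 4 members were called up and 1 down at day 3, where 16.0% of 15303 genes were called up and 12.7% down. The counts were again 4 and 1 at day 6 (17.1% up, 14.0% down). In PMs 4 were called up and none down at day 3 (17.5% and 14.9% of 16144 genes), and 4 up and 1 down at day 6 (20.2% and 15.3%). At an adjusted p under 0.05 with any fold, 9 members passed in PMs at day 3 (58.8% of genes) and 8 at day 6 (61.4%), and in C2C12 cells 7 at day 3 (39.6%) and 6 at day 6 (43.0%). The median log2 fold change of the 10 members at day 3 was 0.46 in C2C12 cells and 0.74 in PMs, against -0.01 and 0.01 over all genes tested. Between days 3 and 6 no member was called in C2C12 cells, where no gene of the table was (0%) and no member had an unadjusted p under 0.05 either, and DESeq2 called none. In PMs 1 member was called down between those days (0.582%). P-values rest on the spread between replicate libraries, 2 to a group, pooled over all groups of the fit and with information shared across genes.

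**Figure D2:**
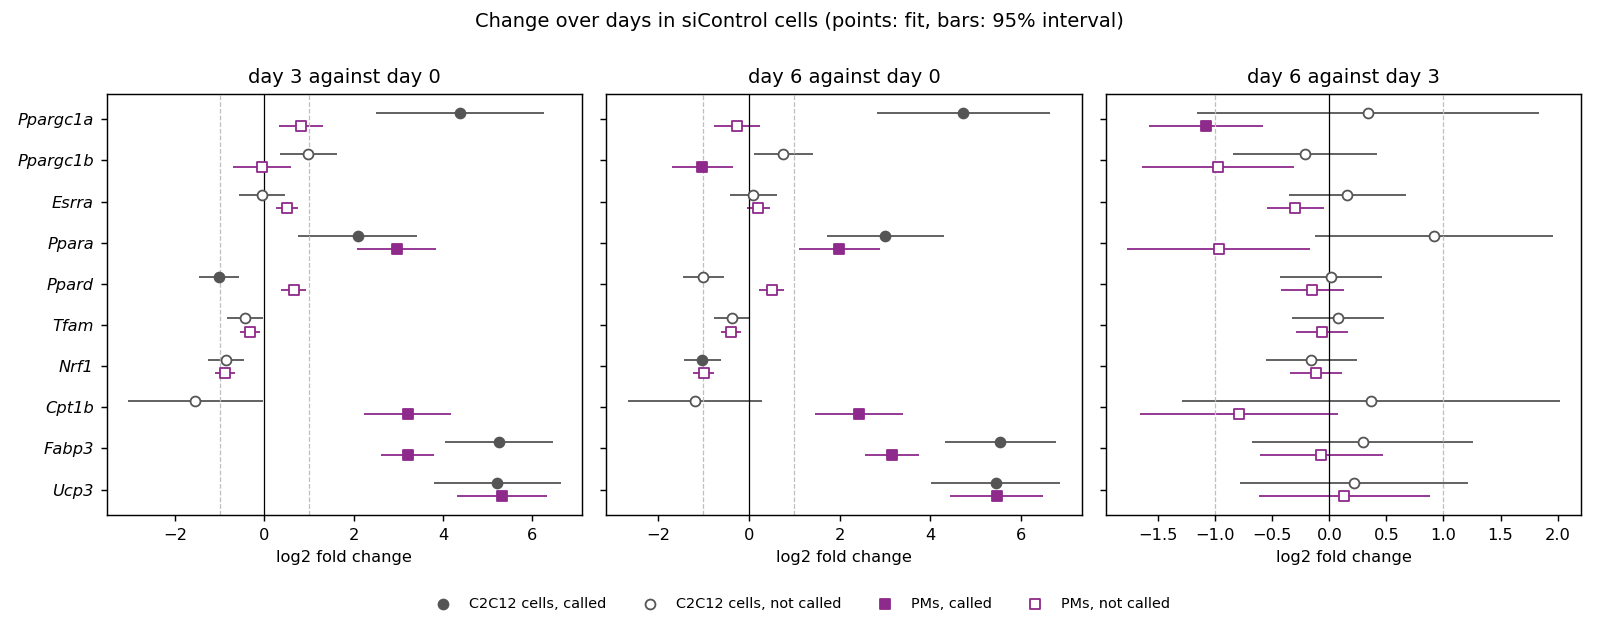
Log2 fold change (x axis) of each member between days in siControl cells, with C2C12 cells as grey circles and PMs as purple squares. Bars are 95% intervals, filled symbols are called and dashed lines mark the threshold of 1. Ppargc1a and Cpt1b lie far apart in the 2 cell types in the first pair of panels, and the C2C12 values of Ppara and Ucp3 rest on 2 to 3 counts a library at day 0.

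Ppargc1a (ENSMUSG00000029167, mm9 chr5:51845488-51958964, minus strand) was at 0.310 and 0.107 CPM in siControl C2C12 cells at day 0, at 3.16 and 5.32 CPM at day 3 and at 3.14 and 7.69 CPM at day 6. PM siControl libraries held 13.6 and 12.8 CPM at day 0, then 25.8 and 22.6 CPM at day 3, then 9.57 and 13.5 CPM at day 6. At each day both PM libraries lay above both C2C12 libraries. The rise in C2C12 cells was 4.38 on the log2 scale at day 3 (SE 0.85, edgeR adjusted p = 0.0027) and 4.72 at day 6 (adjusted p = 0.0016). In PMs the value at day 3 was 0.82 (SE 0.22, adjusted p = 0.0084), under the threshold of fold, and from day 3 to day 6 Ppargc1a fell by 1.08 (SE 0.22, adjusted p = 0.023). That fall lost its call without siControl replicate 1 at day 3 (-0.98, adjusted p = 0.12), without replicate 2 at day 3 (-1.18, adjusted p = 0.060), and without replicate 1 at day 6 (-0.85, adjusted p = 0.11). It was also lost with only the 4 libraries compared (-1.07, adjusted p = 0.064) and in the fit of all 24 libraries (-1.07, adjusted p = 0.37). Fibroblast markers in siControl PMs summed to 1046 to 1159 CPM at day 3 and to 1896 to 3000 CPM at day 6. Their median log2 fold change between these days was 1.65, against -0.01 over all genes tested. Macrophage markers were also higher at day 6 (sum at most 2.62 CPM). Their part in the fall was not tested. The change from day 0 was smaller in PMs than in C2C12 cells, with an interaction term of -3.57 at day 3 (log2 scale, SE 0.85, adjusted p = 0.0088; 11.2% of 16926 genes were called in this comparison) and of -4.97 at day 6 (SE 0.85, adjusted p = 6e-04; 12.7%). Without siControl C2C12 replicate 2 at day 0 the former value was -2.87 (adjusted p = 0.082).

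Ppargc1b (ENSMUSG00000033871, mm9 chr18:61457790-61560085, minus strand), the sister coactivator, was at 5.01 and 5.14 CPM in siControl C2C12 cells at day 0, at 8.42 and 12.1 CPM at day 3 and at 7.25 and 10.5 CPM at day 6. The PM levels were 24.7 and 29.0 CPM at day 0, 26.7 and 27.2 CPM at day 3 and 16.2 and 11.4 CPM at day 6. Its C2C12 value at day 3 was 0.98 (SE 0.29, adjusted p = 0.021), just under the threshold of fold, and it was called without siControl replicate 1 at day 3 (1.23), with RLE size factors (1.01), with DESeq2 (1.02) and in the fit of all 24 libraries (1.02). In PMs it fell by 1.02 from day 0 to day 6 (SE 0.30, adjusted p = 0.013), a call lost without siControl replicate 2 at day 0 (-0.91, adjusted p = 0.064), without replicate 2 at day 6 (-0.79, adjusted p = 0.091) and in the fit of all 24 libraries (-0.95). Fibroblast markers summed to 67.6 to 97.7 CPM in siControl PMs at day 0, and 4 of 5 tested were called up by day 6 (20.2% of all genes). In siControl C2C12 cells the same markers summed to 54.5 to 61.1 CPM at day 0 and to 233 to 378 CPM at day 6. There 3 of 4 tested were called up by day 6 (17.1% of all genes). The part of these markers in the PM fall was not tested. The 2 cell types differed in the change to day 6 by -1.76 (SE 0.44, adjusted p = 0.011), and this difference lost its call without replicate 2 at day 6 of either the PMs (-1.51, adjusted p = 0.058) or the C2C12 cells (-1.45, adjusted p = 0.061).

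Among the nuclear receptors, Esrra (ENSMUSG00000024955, mm9 chr19:6985467-6996303, minus strand) was steady in siControl C2C12 cells, between 40.8 and 51.7 CPM over the 6 libraries. In siControl PMs it was at 57.4 and 48.1 CPM at day 0, at 82.6 and 73.5 CPM at day 3 and at 61.3 and 66.7 CPM at day 6. The PM value at day 3 was 0.51 (SE 0.11, adjusted p = 0.0026), and the difference from C2C12 cells was 0.58 (95% interval 0.04 to 1.12, adjusted p = 0.16). Exons of Esrra share 73 bases with Trmt112 on the other strand, and the library kit did not mark the strand.

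Ppara (ENSMUSG00000022383, mm9 chr15:85565413-85633249, plus strand) had 3 counts in each siControl C2C12 library at day 0, 7 and 21 counts at day 3 and 28 and 18 counts at day 6. The ratio of the 28 counts at day 3 to the 6 at day 0, scaled to library size, was 4.67 (95% interval for counting error 1.90 to 13.8), and that of day 6 to day 0 was 8.60 (3.66 to 24.6). The call at day 3 was lost without either library of day 0 (2.39 on the log2 scale, adjusted p = 0.058, and 1.75, adjusted p = 0.15), without replicate 2 at day 3 (1.23, adjusted p = 0.23) and with DESeq2 (2.16, adjusted p = 0.051). In siControl PMs Ppara was at 0.657 and 0.564 CPM at day 0, at 4.57 and 5.38 CPM at day 3 and at 3.07 and 2.05 CPM at day 6, with no overlap between the days. The PM rise was 2.96 at day 3 (SE 0.40, adjusted p = 1e-04) and 1.99 at day 6 (SE 0.40, adjusted p = 0.0015).

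Ppard (ENSMUSG00000002250, mm9 chr17:28369699-28438414, plus strand) moved the other way in C2C12 cells. In siControl C2C12 cells it was at 96.5 and 67.1 CPM at day 0, at 43.7 and 39.7 CPM at day 3 and at 44.8 and 39.2 CPM at day 6. In siControl PMs it was at 27.9 and 22.3 CPM at day 0, at 43.0 and 39.0 CPM at day 3 and at 37.1 and 37.4 CPM at day 6, so that the cell types began apart and met at day 3. The C2C12 fall at day 3 was 1.01 (log2 fold change -1.01, SE 0.20, adjusted p = 0.0031) and the value at day 6 was -1.0 (SE 0.20, adjusted p = 0.0030), on the other side of the threshold of fold. Its call at day 3 was lost with RLE size factors (-0.98), DESeq2 (-0.97), all 24 libraries in 1 fit (-0.97) or only the 4 libraries compared (-0.99), and without siControl replicate 1 at day 0 (-0.72) or replicate 2 at day 3 (-0.95). At day 6 the call was gained without siControl replicate 2 at day 0 (-1.23) or replicate 1 at day 6 (-1.10). In PMs the values were 0.65 at day 3 (SE 0.13, adjusted p = 0.0012) and 0.50 at day 6 (SE 0.13, adjusted p = 0.0054). The difference between the cell types was 1.68 at day 3 (SE 0.23, adjusted p = 9.4e-05) and 1.53 at day 6 (SE 0.23, adjusted p = 0.00019). Both kept their calls under every alternative run for them.

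The 2 genes of the mitochondrial genome programme did not rise. Nrf1 (ENSMUSG00000058440, mm9 chr6:29997988-30103458, plus strand) was at 51.9 and 58.0 CPM in siControl C2C12 cells at day 0, at 29.6 and 32.4 CPM at day 3 and at 24.9 and 30.7 CPM at day 6. Its siControl PM levels were 50.9 and 48.2 CPM at day 0, 26.6 and 29.2 CPM at day 3 and 26.5 and 25.5 CPM at day 6. Its log2 fold changes at days 3 and 6 were -0.86 (adjusted p = 0.0038) and -1.02 (adjusted p = 0.0014) in C2C12 cells and -0.88 (adjusted p = 3.4e-05) and -1.0 (adjusted p = 1.3e-05) in PMs. All 4 values lay near the threshold of fold and 1 was called, that of C2C12 cells at day 6. This value lost its call with RLE size factors (-0.98), with DESeq2 (-0.98), with all 24 libraries (-0.98) or only 4 (-0.99), and without siControl replicate 2 at day 0 (-0.93) or replicate 1 at day 6 (-0.88). The PM value at day 6 was called with RLE size factors, DESeq2 or no filter (-1.01 each), and without siControl replicate 2 at day 0 (-1.04) or replicate 1 at day 6 (-1.02). Tfam (ENSMUSG00000003923, mm9 chr10:70688212-70701028, minus strand) spanned 49.0 to 67.5 CPM over siControl C2C12 libraries and 51.0 to 68.6 CPM over siControl PM libraries, with day 0 the highest in both. Its log2 fold change at day 3 was -0.44 (adjusted p = 0.078) in C2C12 cells and -0.32 (adjusted p = 0.020) in PMs, and the difference between the cell types was 0.14 (95% interval -0.29 to 0.56, adjusted p = 0.75).

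The effectors of fatty acid use come last. Fabp3 (ENSMUSG00000028773, mm9 chr4:129985839-129992707, plus strand) was at 1.13 and 0.551 CPM in siControl C2C12 cells at day 0, at 31.7 and 32.4 CPM at day 3 and at 44.0 and 34.4 CPM at day 6. In siControl PMs it was at 14.3 and 11.8 CPM at day 0, at 151 and 102 CPM at day 3 and at 114 and 129 CPM at day 6. The C2C12 libraries at days 3 and 6 thus passed those of PMs at day 0. Fabp3 rose by 5.25 in C2C12 cells at day 3 (SE 0.54, adjusted p = 6.3e-05) and by 3.22 in PMs (SE 0.27, adjusted p = 3.5e-06), and the rise in PMs was the smaller, with a difference of -2.03 at day 3 (SE 0.56, adjusted p = 0.021) and of -2.38 at day 6 (SE 0.56, adjusted p = 0.0072). The difference at day 3 lost its call when siControl replicate 1 at day 0 (-1.87) or replicate 2 at day 3 (-1.76) of the PMs was left out, and when C2C12 replicate 2 at day 0 (-1.54) or replicate 1 (-2.05) or 2 (-2.01) at day 3 was, and that at day 6 without C2C12 replicate 2 at day 0 (-1.89). Fabp3 shares 81 exon bases with Zcchc17 and 80 with Gm10570 on the other strand.

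Ucp3 (ENSMUSG00000032942, mm9 chr7:107621499-107634941, plus strand) had 3 and 2 counts in the siControl C2C12 libraries at day 0, then 83 and 124 counts by day 3, then 100 and 99 counts by day 6. The ratio of day 3 to day 0, scaled to library size, was 41.4 (95% interval for counting error 17.5 to 129), and that of day 6 was 44.7 (18.8 to 139). In siControl PMs it was at 0.593 and 0.310 CPM at day 0, at 24.0 and 15.0 CPM at day 3 and at 23.7 and 19.4 CPM at day 6, a rise of 5.32 at day 3 (SE 0.46, adjusted p = 4.4e-06) and of 5.46 at day 6 (SE 0.46, adjusted p = 3.2e-06). The groups of days 3 and 6 did not overlap with day 0 in either cell type.

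Cpt1b (ENSMUSG00000078937, mm9 chr15:89246836-89256294, minus strand), the muscle form of carnitine palmitoyltransferase 1, was at 1.08 and 0.564 CPM in siControl PMs at day 0, at 9.31 and 6.80 CPM at day 3 and at 5.60 and 3.78 CPM at day 6. The siControl C2C12 libraries were at 0.394 and 0.302 CPM at day 0, at 0.0944 and 0.142 CPM at day 3 and at 0.193 and 0.10 CPM at day 6, with 17 counts or fewer in every library. Cpt1b rose by 3.21 in PMs at day 3 (SE 0.44, adjusted p = 0.00011) and by 2.42 at day 6 (SE 0.44, adjusted p = 0.00069). The C2C12 values were -1.55 at day 3 (SE 0.68, adjusted p = 0.095) and -1.18 at day 6 (adjusted p = 0.18), and the former was called with only the 4 libraries compared (-1.52, adjusted p = 0.030). The change was higher in PMs by 4.77 at day 3 (SE 0.81, adjusted p = 0.00068) and by 3.62 at day 6 (SE 0.80, adjusted p = 0.0048). Both differences kept their calls under every alternative run for them. Exons of Cpt1b share 2744 bases with the gene Chkb on the same strand. Chkb was at 22.4 to 33.3 CPM in siControl C2C12 cells and at 16.2 to 22.5 CPM in siControl PMs, and its log2 fold change at day 3 was -0.18 and 0.14 (adjusted p = 0.58 and 0.41). How reads of the shared bases were assigned was not tested.

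Levels of members were also compared directly between siControl PMs and siControl C2C12 cells, which differ in strain, origin and culture medium too. These values come from the same fit and libraries as the differences in change given above, so they are no separate evidence. At day 0, 5 members were called higher and 1 lower in PMs (16.3% and 10.5% of 16926 genes). At day 3, 6 were higher and none lower (17.2% and 12.6%), and at day 6, 4 were higher and none lower (15.7% and 9.22%). With any fold, 7 passed at day 3 (45.8%), Esrra being added. Ppargc1a was higher by 6.08 at day 0 (SE 0.69, adjusted p = 2.3e-06), by 2.51 at day 3 (adjusted p = 0.00086) and by 1.11 at day 6 (95% interval 0.04 to 2.17, adjusted p = 0.095), and the last value was called without C2C12 replicate 2 at day 6 (1.86, adjusted p = 0.032). Cpt1b was at 1.27 at day 0 (adjusted p = 0.072) and was higher in PMs by 6.04 at day 3 (SE 0.61, adjusted p = 8.1e-07) and by 4.89 at day 6 (adjusted p = 7.4e-06). Fabp3 was higher in PMs at all 3 days, by 4.01, 1.98 and 1.63. So was Ucp3, whose 39 counts at day 0 stood against 5 in C2C12 cells (ratio 8.66, 3.41 to 28.2), a call lost without PM replicate 1 (2.40, adjusted p = 0.069) or C2C12 replicate 2 (2.38, adjusted p = 0.078). Ppara had 51 counts against 6 (ratio 9.44, 4.05 to 26.9) and was higher by 4.04 at day 3 and 2.17 at day 6. Ppargc1b was higher by 2.40 at day 0 and 1.39 at day 3. Ppard was lower by 1.70 at day 0 (log2 fold change -1.70, SE 0.17, adjusted p = 4.3e-07). Esrra, Tfam and Nrf1 were called at none of the 3 days. The sum of the myotube markers was also higher in PMs, at 44671 to 49386 CPM at day 3 against 19717 to 22083 CPM in C2C12 cells, and its part in these differences was not tested.

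The effect of siTead1/4 was then examined at each day. Fabp3 was the member called in PMs, down at days 0 and 3. Its value at day 6 was of a size like that at day 3 but was not called. No member was called in C2C12 cells, although Fabp3, Ucp3 and Ppargc1a had lower means than in siControl cells at days 3 and 6, and Ppara had a higher mean at day 0 and a lower one at day 6. In PMs 1 of the 10 members was called down at day 0 (1.10% of 16144 genes), 1 at day 3 (1.20%) and none in either direction at day 6 (0.743%), and DESeq2 called 1 at day 6. In C2C12 cells none was called at day 0 (0.438% of 15303 genes), day 3 (1.27%) or day 6 (0.0457%). With edgeR 2, 2 and 1 of the 10 had an unadjusted p under 0.05 at these days, and DESeq2 called none, 1 and none. In PMs at day 6, 1 member had an unadjusted p under 0.05. The median log2 fold change of the members lay between -0.19 and 0.23 over the 6 comparisons, and that of all genes tested between -0.01 and 0.02.

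**Figure D3:**
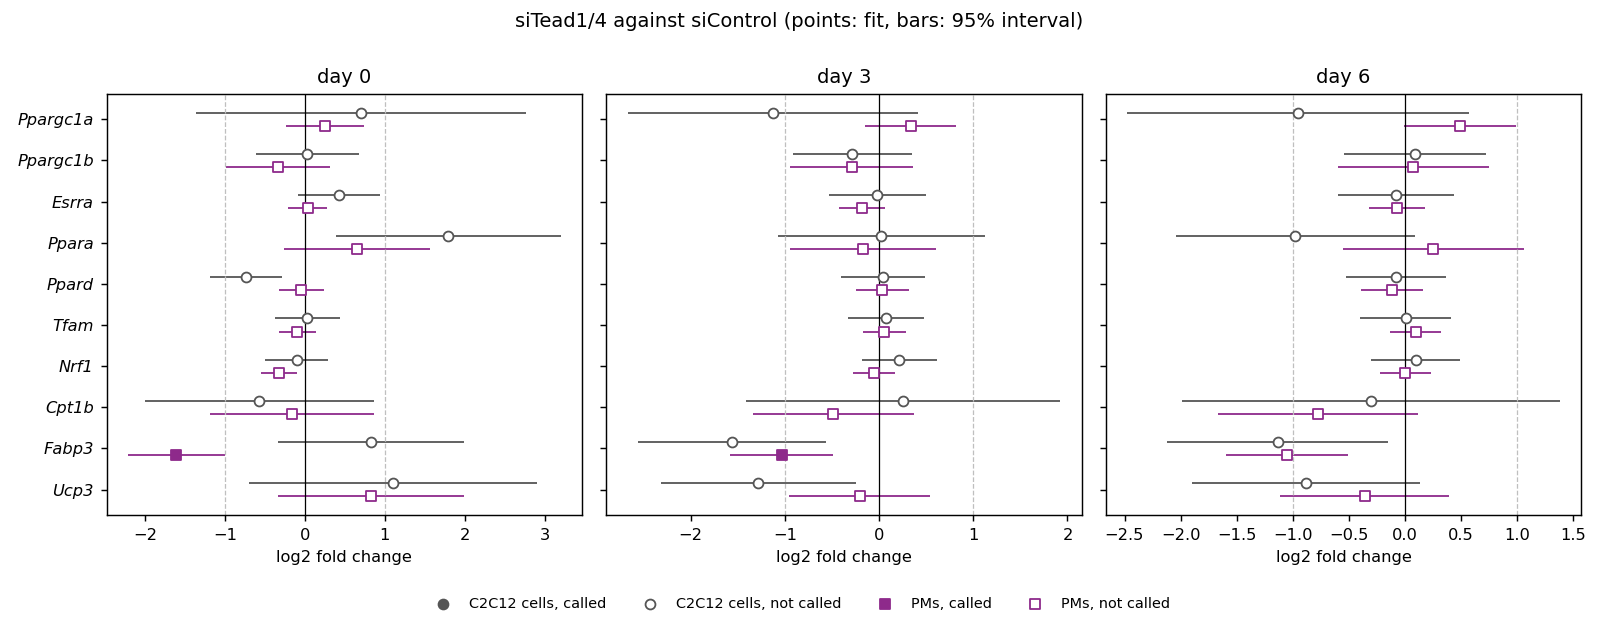
Log2 fold change (x axis) of each member after siTead1/4 against siControl at days 0, 3 and 6, with C2C12 cells as grey circles and PMs as purple squares. Bars are 95% intervals, filled symbols are called and dashed lines mark the threshold of 1. Fabp3 in PMs holds the only filled symbols, at days 0 and 3.

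Fabp3 was at 5.03 and 3.64 CPM after siTead1/4 in PMs at day 0, at 70.3 and 53.9 CPM at day 3 and at 46.7 and 70.4 CPM at day 6. Each of these libraries lay below the siControl libraries of its day, of which the lowest were at 11.8, 102 and 114 CPM. Fabp3 fell by 1.61 at day 0 (SE 0.27, edgeR adjusted p = 0.0076) and by 1.03 at day 3 (SE 0.25, adjusted p = 0.031), and the value at day 6 was -1.05 (SE 0.25, adjusted p = 0.077), which was called with DESeq2 (-1.05, adjusted p = 0.0027) and with no filter on low counts (-1.04). The call at day 0 was lost without siControl replicate 1 (-1.46, adjusted p = 0.071) or siTead1/4 replicate 2 (-1.39, adjusted p = 0.071). The call at day 3 was lost without siControl replicate 1 (-0.72, adjusted p = 0.23), siTead1/4 replicate 1 (-1.24, adjusted p = 0.069) or siTead1/4 replicate 2 (-0.86, adjusted p = 0.19), and in the fit of all 24 libraries (-1.02, adjusted p = 0.17). Myotube markers in siTead1/4 PMs summed to 8543 to 10660 CPM at day 0 and 41944 to 45033 CPM at day 3, against 9969 to 10993 and 44671 to 49386 CPM in siControl PMs. Of these 10 genes 0 were called at either day, where 1.10% and 1.20% of all genes were called down. At day 0, 5 had a negative and 5 a positive log2 fold change, and at day 3, 7 and 3. The part of this in the Fabp3 values was not tested.

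In C2C12 cells Fabp3 after siTead1/4 was at 0.681 and 2.30 CPM at day 0, at 8.97 and 13.2 CPM at day 3 and at 16.3 and 19.2 CPM at day 6. At days 3 and 6 both libraries lay below both siControl libraries. The log2 fold changes were 0.82 (adjusted p = 0.66), -1.56 (SE 0.45, adjusted p = 0.13) and -1.14 (SE 0.44, adjusted p = 0.62). The value at day 3 was called with DESeq2 (-1.57, adjusted p = 0.014), with no filter on low counts (-1.55) and in the fit of all 24 libraries (-1.53, adjusted p = 0.022), and that at day 6 with no filter (-1.14). Myotube markers summed to 7127 to 10311 CPM in these cells at day 3 against 19717 to 22083 CPM in siControl cells, and at day 6 to 10341 to 18291 against 21123 to 23323 CPM, and the part of this in the Fabp3 values was not tested. The effect of siTead1/4 on Fabp3 at day 0 differed between PMs and C2C12 cells by -2.41 (SE 0.61, unadjusted p = 0.0011 of edgeR's fit across all genes, adjusted p = 0.39), which DESeq2 called (-2.43, adjusted p = 0.024), as did the fit with no filter (-2.40) and the fit without C2C12 siTead1/4 replicate 1 (-3.11, adjusted p = 0.019). At days 3 and 6 the differences were 0.51 (95% interval -0.56 to 1.58) and 0.09 (-0.98 to 1.15).

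Ucp3 after siTead1/4 was at 0.714 and 1.16 CPM in C2C12 cells at day 3 and at 1.30 and 1.51 CPM at day 6, below the siControl libraries of both days. The log2 fold changes were -1.28 (SE 0.47, adjusted p = 0.23) and -0.88 (adjusted p = 0.80). In PMs Ucp3 was at 19.5 and 14.5 CPM at day 3, overlapping the siControl libraries at 24.0 and 15.0 CPM, and its log2 fold change was -0.20 (95% interval -0.95 to 0.54). Ppargc1a was at 1.32 and 2.64 CPM in siTead1/4 C2C12 cells at day 3 and at 37.9 and 23.5 CPM in siTead1/4 PMs, with log2 fold changes of -1.13 (95% interval -2.67 to 0.41) and 0.34 (-0.15 to 0.82). The effect on Ppargc1a differed between the cell types by 1.43 (95% interval -0.08 to 2.95, adjusted p = 0.41) at day 3. No member was called in the comparison of the siTead1/4 effect between cell types at day 0 (0.00591% of 16926 genes were called), day 3 (1.25%) or day 6 (0.0354%), with 2, 0 and 0 members at an unadjusted p under 0.05 and 1, 0 and 0 called by DESeq2.

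Ppara in C2C12 cells had 12 and 5 counts after siTead1/4 at day 0 against 3 in each siControl library, a ratio of 3.72 scaled to library size (95% interval for counting error 1.40 to 11.5, edgeR adjusted p = 0.32). By day 6 its levels were 0.259 and 0.310 CPM against 0.540 and 0.601 CPM, a log2 fold change of -0.98 (95% interval -2.04 to 0.09, adjusted p = 0.77), and the libraries did not overlap at either day. In PMs the values of Ppara were 0.65, -0.17 and 0.25 at days 0, 3 and 6.

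For the steadier members the intervals bound the effect of siTead1/4 in PMs, and none are given here for C2C12 cells. In PMs the 95% intervals of the log2 fold change of Esrra, Ppard and Tfam lay between -0.43 and 0.33 at all 3 days. Nrf1 in PMs was at 41.8 and 38.2 CPM at day 0, below the siControl libraries, with a log2 fold change of -0.32 (95% interval -0.54 to -0.10, adjusted p = 0.084), and at -0.05 and 0.00 at days 3 and 6. Ppard in C2C12 cells at day 0 was at 48.5 and 49.8 CPM after siTead1/4 against 96.5 and 67.1 CPM, a log2 fold change of -0.74 (SE 0.20, adjusted p = 0.17). Esrra in C2C12 cells at day 0 was at 44.4 and 70.9 CPM, the second library standing above all other C2C12 libraries. Cpt1b in PMs was at 7.55 and 3.99 CPM at day 3 and at 3.15 and 2.33 CPM at day 6, with log2 fold changes of -0.49 (95% interval -1.34 to 0.37) and -0.77 (-1.67 to 0.12).

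The other genes of the pathway were followed in 7 lists without the members. In siControl PMs at day 3, 8 of 15 tested genes of fatty acid beta-oxidation were called up and none down (17.5% and 14.9% of all genes), with a median log2 fold change of 1.0. They were led by Acaa2, which cleaves the last bond of each cycle (2.55, SE 0.21, adjusted p = 3.2e-06). In siControl C2C12 cells none of the 15 was called at day 3 (median 0.25), where 16.0% of all genes were called up. At day 6 the 1 called was Acadl (1.03, SE 0.24, adjusted p = 0.0064), with 17.1% of all genes called up. Of the genes of fuel choice, lipid stores and uncoupling, 7 of 12 rose in PMs at day 3 (17.5% of all genes) and 3 of 11 in C2C12 cells (16.0%), where 1 fell (12.7%). Pdk2, a kinase that turns pyruvate dehydrogenase off, rose by 3.48 in PMs at day 3 (adjusted p = 1.8e-07) and by 3.50 in C2C12 cells at day 6 (adjusted p = 2.6e-06). Ucp2 rose by 3.40 in C2C12 cells at day 3, and Pdk4 fell there by 1.21 (adjusted p = 0.034).

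Genes of fatty acid uptake, activation and the carnitine shuttle went both ways, with 7 of 18 called up and 2 down in C2C12 cells at day 3 (16.0% and 12.7% of all genes) and 7 up and 4 down in PMs (17.5% and 14.9%). The 2 falls in C2C12 cells were near the share of all genes. Cd36, a fatty acid transporter of the cell surface, rose by 8.56 in C2C12 cells (from a mean of 0.227 to 92.1 CPM, SE 0.39, adjusted p = 1.2e-06), and Acacb, whose product malonyl-CoA inhibits carnitine palmitoyltransferase 1, rose by 4.78 in PMs (SE 0.46, adjusted p = 9.9e-06). Fabp5, another carrier of fatty acids, fell by 3.49 in C2C12 cells and by 2.75 in PMs. Of the 20 other coregulators and nuclear receptors 4 rose and 3 fell in C2C12 cells at day 3 (16.0% and 12.7% of all genes), and 6 rose and 3 fell in PMs (17.5% and 14.9%). Apart from the 6 rises in PMs these counts were near the shares of all genes. Prkaa2, a catalytic subunit of the AMP-activated kinase, rose by 3.24 in C2C12 cells, and Esrrb rose by 3.57 in PMs. Pparg, the receptor of fat cell differentiation, fell in both (-2.49 and -2.10, adjusted p = 0.00017 and 1.5e-05).

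Of the 9 tested genes that copy and transcribe mitochondrial DNA none was called in C2C12 cells at day 3 (16.0% of all genes up, 12.7% down). In PMs 1, Tfb1m, rose (1.11, adjusted p = 0.00081), where 17.5% of all genes were called up. The transcripts of mitochondrial DNA themselves, 12 of 13 of which were tested, all had positive log2 fold changes in both cell types at day 3. The medians were 0.51 in C2C12 cells and 0.95 in PMs. In C2C12 cells 1 was called up, under the share of all genes (16.0%), and in PMs 4 were (17.5% of all genes). The sum of these transcripts was 18987 to 25308 CPM in siControl C2C12 cells at day 0 and 30694 to 35572 CPM at day 3. In PMs it was 22228 to 25514 and 51198 to 52529 CPM. Tfam and Nrf1, by contrast, were lower at day 3 than at day 0 in both cell types, as given above. Of the 15 genes of the tricarboxylic acid cycle, 4 rose and 1 fell in PMs at day 3 (17.5% and 14.9% of all genes). In C2C12 cells none rose and 1, Suclg2, fell (-1.04, adjusted p = 0.0031), where 16.0% and 12.7% of all genes did. At day 3 the call of mt-Nd6 in C2C12 cells was at a log2 fold change of 1.0 (SE 0.23, adjusted p = 0.0068).

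**Figure D4:**
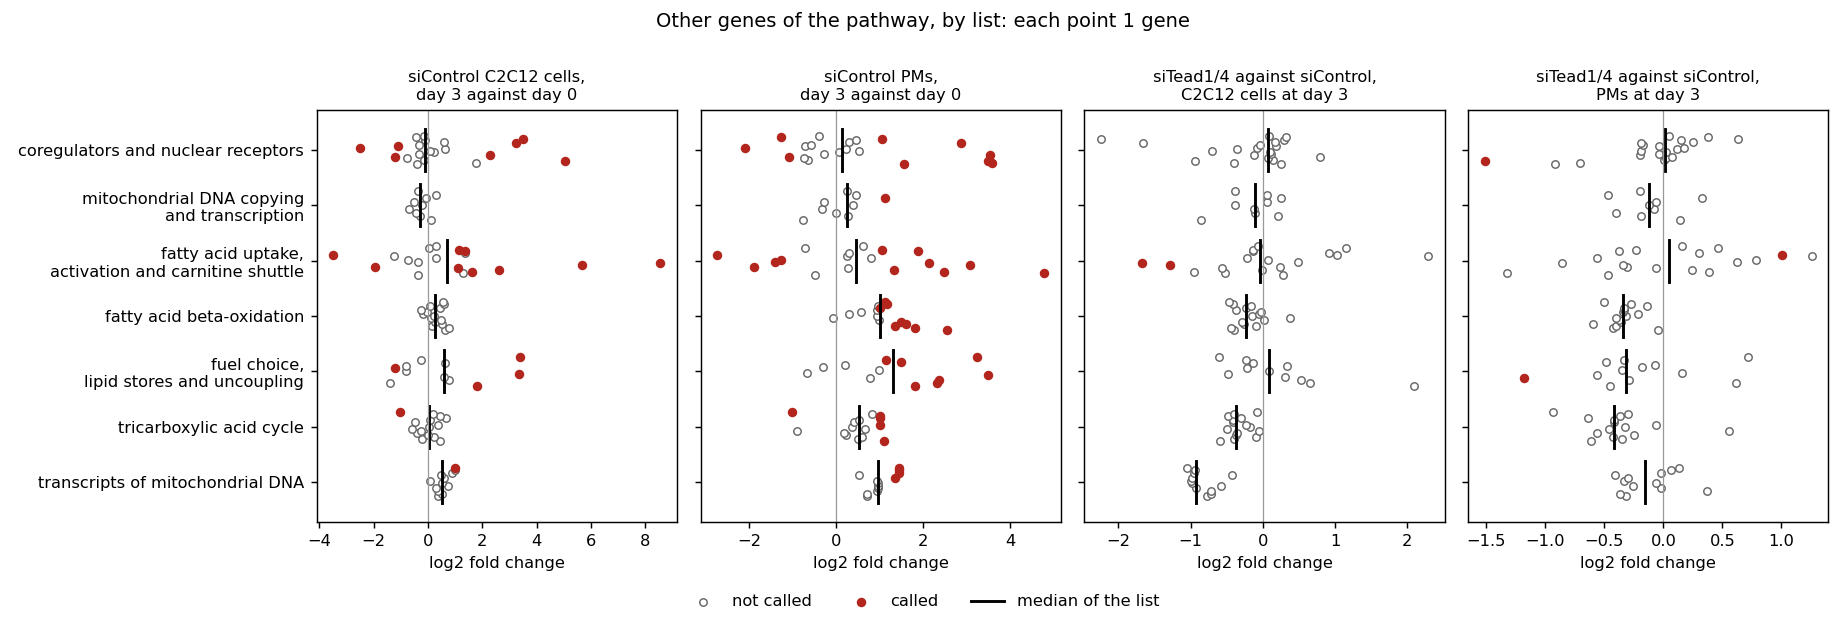
Log2 fold change (x axis) of the other genes of the pathway at day 3, by list (y axis), in siControl cells against day 0 (both panels on the left) and after siTead1/4 (both panels on the right). Each point is 1 tested gene, filled where called, and black bars are the medians of the lists. Beta-oxidation genes stand higher in PMs (median 1.0) than in C2C12 cells (0.25) at day 3, and transcripts of mitochondrial DNA lie below 0 after siTead1/4 in C2C12 cells (median -0.93, 0 of 12 called).

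After siTead1/4 few genes of these lists were called. In C2C12 cells at day 3, 2 of 18 genes of uptake, activation and the carnitine shuttle fell (1.27% of all genes were called), Cd36 the most (-1.67, SE 0.27, adjusted p = 0.023, from a mean of 92.1 to 29.5 CPM), and Acsl6, which activates fatty acids and was named after its values were seen, was the other (-1.29, adjusted p = 0.034). No gene of the other lists was called. All 12 tested transcripts of mitochondrial DNA and all 15 genes of the tricarboxylic acid cycle had negative log2 fold changes there, with medians of -0.93 and -0.37 against 0.01 for all genes tested, and no gene of either list was called. In PMs Esrrg, an orphan receptor that partners the PGC-1 coactivators, fell by 2.06 at day 0 (SE 0.39, adjusted p = 0.012) and by 1.51 at day 3 (SE 0.30, adjusted p = 0.015), and Pdk1 fell by 1.67 (adjusted p = 0.0022) and 1.18 (adjusted p = 0.0084). At both days Esrrg was the 1 called of 20 coregulators and nuclear receptors, and Pdk1 the 1 called down of 12 genes of fuel choice. Suclg2 fell by 1.01 at day 0. Over all genes 1.10% were called down at day 0 and 1.20% at day 3. Ucp2 rose by 1.34 at day 0 (adjusted p = 0.045), 1 of 2 genes of fuel choice called up there. Fabp5 rose by 1.01 at day 3 (adjusted p = 0.0081), the 1 called of 18 genes of uptake, activation and the carnitine shuttle. Genes of the tricarboxylic acid cycle had negative log2 fold changes in PMs too, 14 of 15 at each day, with medians of -0.18, -0.41 and -0.23, and Suclg2 at day 0 was the 1 called. Beta-oxidation genes had negative log2 fold changes in 15 of 15 cases in PMs at day 3 and again at day 6, with medians of -0.34 and -0.20, and none was called. In neither cell type was any gene of the 7 lists called at day 6.

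Over the 12 group means of log2 CPM, the genes whose pattern was most like that of Ppargc1a among 16926 were Igf2 (Pearson r = 0.991), Gm15816 (0.991) and Zfp568 (0.990). For Cpt1b they were Stard8 (0.983), Rcsd1 (0.982) and Acss1 (0.978), and for Ucp3 they were Nat6 (0.993), Ptp4a2 (0.992) and Cpeb4 (0.990). These correlations describe 12 points that share libraries within cell types, and each is the highest of many.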

How the data were processed

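The authors deposited 1 table of raw read counts per Ensembl gene with the gene length in bases. Per the labels and the methods, poly(A) RNA reads were mapped to mm9, and the submitters' processing notes name CASAVA 1.8.2, TopHat2 2.0.10, Bowtie2 2.1.0, HTSeq 0.6.1 and DESeq2 1.8.1. The Ensembl release is not given in the sources used here. The 36 columns of 12 libraries that are not listed as samples were not used, nor were the columns of normalised values and the authors' own comparisons.

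Counts were tested with edgeR 4.0.16 in R 4.3.3 (quasi-likelihood test, TMM scaling, filterByExpr) with 1 fit of 12 libraries per cell type, and 1 fit of all 24 libraries for comparisons between cell types. P-values were adjusted over all genes tested (Benjamini-Hochberg). Standard errors and intervals of log2 fold changes were computed back from the fold change and the F statistic of the test. CPM are scaled by the TMM factors of the 24-library fit, and CPM per kb divides them by gene length. Total counts of 25453830 to 52784510 per library set the precision. Intervals of count ratios are exact at a level of 0.95 and cover counting error only. Replicates differed by more than sampling noise.

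The members, the pathway and marker lists and the motifs were chosen with earlier results of these data known. All 10 members and both siRNA targets are named. From each pathway list at most the called gene with the largest rise and that with the largest fall were named per comparison, leaving out genes with 3 counts or fewer in both libraries of a group. For Ppargc1a, Cpt1b and Ucp3 the 3 genes of highest Pearson correlation over the 12 group means of log2 CPM (prior count 2) were named. Shared exon bases were read from the mm9 annotation GENCODE vM1, and promoters are RefSeq sequence. Alternatives were RLE size factors, no filter on low counts, DESeq2 1.42.0, other sets of libraries in the fit (for comparisons within a cell type), a replicate block, no limit on fold, and leaving out each library.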

Additional observations from a re-analysis of the deposited data

Results flagged for a closer look

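For 5 members the change from day 0 in siControl cells differed between PMs and C2C12 cells by the interaction term of edgeR's fit of all 24 libraries, past both thresholds of the report. Of all 16926 genes tested, 11.2% were called in this comparison at day 3 and 12.7% at day 6. Values are the log2 change in PMs minus that in C2C12 cells. The difference of Cpt1b was 4.77 at day 3 and 3.62 at day 6, and that of Ppard was 1.68 and 1.53. That of Ppargc1a was -3.57 and -4.97, and that of Fabp3 was -2.03 and -2.38. Ppargc1b differed at day 6, by -1.76. The calls of Fabp3 at both days, of Ppargc1a at day 3 and of Ppargc1b at day 6 were lost in fits that left out a library. Myotube markers summed to 9969 to 10993 CPM in siControl PMs at day 0 and to 35.0 to 112 CPM in siControl C2C12 cells, and the part of this in the 9 differences was not tested. Strain, origin, culture medium and cell line cannot be told apart here.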

How the results depend on the processing

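Of 200 member values over all comparisons 47 were called. Of these 35 kept their direction and call under every alternative run for them, 12 lost the call under 1 or more, and 0 changed direction. Dropping the limit on fold can only add calls. The comparisons between cell types were not run with other sets of libraries in the fit, apart from leaving out each library. Another 21 were called under 1 or more alternatives alone, and of the 132 called under no setting 66 changed sign under 1 or more. The cause of the moves was not tested.

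Without a limit on fold, 9 members in place of 4 were called in siControl PMs at day 3 against day 0, and 8 in place of 5 at day 6. It gave 7 and 6 in place of 5 in siControl C2C12 cells at days 3 and 6, and 7 in place of 6 in PMs against C2C12 cells at day 3. With no filter on low counts 1 member in place of 0 was called after siTead1/4 in C2C12 cells at day 3 and at day 6, in PMs at day 6 and in the difference of the siTead1/4 effect between cell types at day 0, and 2 in place of 1 between days 6 and 3 of siControl PMs. DESeq2 called 1 in place of 0 after siTead1/4 in C2C12 cells at day 3, in PMs at day 6 and in that difference at day 0. All 24 libraries in 1 fit gave 1 in place of 0 after siTead1/4 in C2C12 cells at day 3, and 0 in place of 1 both after siTead1/4 in PMs at day 3 and between days 6 and 3 of siControl PMs, where only the 4 libraries compared also gave 0.

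With the replicate number as a block no call was lost and 4 were gained. After siTead1/4 in PMs at day 6, 1 member was called (Fabp3, -1.04, adjusted p = 0.031), and between days 6 and 3 of siControl PMs 2 were (Ppara added, -1.02, adjusted p = 0.044). Between PMs and C2C12 cells the block added Cpt1b at day 0 (1.52) and Ppargc1a at day 6 (1.66). Same-numbered libraries deviated together with r of -0.17 to 0.47 over 15 pairs of groups in C2C12 cells, 6 of them over 0.1, and 0.05 to 0.50 in PMs, 14 of 15 over 0.1. As not every pair passed 0.1 and no label says that a number marks a shared batch, the fit without the block was kept, though the PM values hint at shared deviations.

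Leaving out 1 library gave 3 to 6 called members in siControl C2C12 cells at day 3 (5 with all), 4 to 6 in siControl PMs at day 6 (5 with all), and 0 to 1 each after siTead1/4 in PMs at days 0 and 3, between days 6 and 3 of siControl PMs and in the difference of the siTead1/4 effect at day 0. The difference of the siControl change between cell types kept 2 to 4 calls at day 3 and 4 to 5 at day 6. Where an arm is left with 1 library, it is assumed to vary like the other groups. C2C12 values of Ppara, Ucp3 and Cpt1b rest on few counts.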
